A study of Mus musculus with 18 samples.

Results

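RNA was compared between UN-SCC679 cells carrying a wild-type DSTYK construct in the pLENTI6 vector (title label OE_DSTYKwt, here OE) and UN-SCC679 cells carrying pLENTI6 without an insert (here empty). The 6 libraries, 3 of each kind, were taken by their titles from 18 in the series. UN-SCC679 is a mouse line labelled lung squamous carcinoma of strain A/J, and no treatment is given for either group. The 12 other libraries are those of hairpin experiments under doxycycline, 6 of them in UN-SCC679 (hairpin sh3 against the empty TPLKO vector) and 6 in LLC cells. The phenotype label reads the same for both pLENTI6 groups, so only the titles tell them apart. The labels do not give the species of the DSTYK cDNA, the number of transduced clones or populations behind the libraries, or whether replicates were separate cultures. The p-values below therefore measure the spread between libraries, which may be technical.

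DSTYK is a protein kinase with both serine/threonine and tyrosine specificity that is related in its kinase domain to the RIP kinases, and it has been connected to fibroblast growth factor signalling and to cell death. pLENTI6 is a lentiviral expression vector that integrates into the genome of the host cell. Squamous carcinomas are known for the transcription factors p63 and Sox2 and for keratins of the stratified epithelium.

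OE libraries held 41897007 to 44101060 estimated counts and empty libraries 40565270 to 45448567. At this depth edgeR's common dispersion gave a biological coefficient of variation of 3.79%. The first empty library stood apart from the other libraries of its group: its mean chi-square per gene was 12.1 and 13.7 against them, whereas the 4 other pairs within groups lay between 1.89 and 3.79. In that library the shortest of 4 equal groups of genes (median effective length 957 bases) lay 0.0835 above the other empty libraries on the log2 scale, and in the longest (4880 bases) the difference was -0.0858. Without it that coefficient was 2.02%. Counts without that library are given beside those of all 6 libraries where its removal turns their balance or moves them most. Levels are given as CPM, counts scaled to a common library size with factors from trimmed means of M-values (TMM), and every log2 change is OE minus empty. Sums over marker lists are CPM scaled by the total counts of each library alone, without TMM factors.

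The label of the cells was set against marker genes. Of 25 squamous markers 9 had enough counts to be tested, 14 fell below the filter and 2 had none. Sox2 was expressed at 70.3, 69.2 and 70.9 CPM in OE libraries, against 85.8, 76.4 and 81.3 CPM in empty libraries, and Trp63, which encodes p63, at 6.33, 6.19 and 5.56 CPM in OE libraries, against 3.12, 2.46 and 2.71 CPM in empty libraries. Krt5 had 0 to 2 counts in each library. The E-cadherin gene Cdh1 had 1 or 2 counts in each library and the epithelial adhesion gene Epcam 0 to 6, and 14 of 28 epithelial markers could be tested. The lung lineage factor Nkx2-1 was expressed in all 6 libraries, with 1602 to 1667 counts in OE libraries and 1492 to 1643 in empty libraries. Krt5, Cdh1 and Epcam were thus at the floor, while Sox2, Nkx2-1 and a low level of Trp63 were present. Other epithelial markers were expressed: the 28 summed to 1183 to 1213 CPM in OE libraries and 1364 to 1400 CPM in empty libraries. Mesenchymal markers summed to 12460 to 12530 CPM in OE libraries and 12940 to 13020 CPM in empty libraries. Of 22 leukocyte markers 7 had no count in any library and the pan-leukocyte gene Ptprc had 2 to 5 counts in each, with a summed level of 21.99 to 23.9 CPM in OE libraries and 21.8 to 22.4 CPM in empty libraries. Endothelial markers summed to 11.7 to 12.02 CPM in OE libraries and 10.3 to 10.7 CPM in empty libraries, and fibroblast markers to 5845 to 5955 CPM in OE libraries and 5685 to 5875 CPM in empty libraries. In bulk RNA, fewer cells of a type and less RNA per cell cannot be told apart.

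Dstyk itself was only slightly higher in the cells with the construct. It measured 37.2, 37.4 and 38.6 CPM in OE libraries, against 29.6, 31.01 and 32.3 CPM in empty libraries (37.8 ± 0.774 CPM in OE libraries and 30.96 ± 1.39 CPM in empty libraries, SD, n = 3 each). The groups did not overlap, and the difference was 1.22-fold (log2 0.29, SE 0.0400; adjusted p = 6.41e-04; adjusted p-values are Benjamini-Hochberg values from edgeR's quasi-likelihood F test here and below). Without the first empty library the log2 change was 0.25. Of the genes called in this comparison 1498 had a larger fold change than Dstyk. Its locus (ENSMUSG00000042046.15) is chr1:132417555-132466958 in GRCm38, plus strand, and a single protein-coding transcript held 96.0% to 98.7% of its estimated counts. Reads of a construct from another species would be assigned to the mouse gene only where the sequences match, so the level of the construct itself is not known from these counts.

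Across the transcriptome the effect was widespread and mostly small. Of 13975 tested genes 4154 were called changed at an adjusted p under 0.05 (29.7%), 2036 higher (14.6%) and 2118 lower (15.2%) in OE libraries. With limma on log2(TPM + 1), which differs from the main test in several steps at once, 1778 were higher and 1242 lower; scaling by library size alone gave 2200 higher and 1985 lower, and an offset for effective length 1656 and 1672. In 6423 genes (46%) the CPM values of the groups did not overlap. The median size of a called change was 1.16-fold and the 90th percentile 1.84-fold. A change of at least 1.5-fold was called for 677 genes (4.84%), 293 higher and 384 lower (297 in all with limma on log2(TPM + 1)), and 626 of them were also called in the same direction without the first empty library. The large changes were mainly losses: 126 genes were lower and 9 were higher by 4-fold or more. Without the first empty library 4936 of 14210 genes were called (34.7%), 2432 higher and 2504 lower. Of the 4154 genes 3968 were called in the same direction in both fits, 186 only with all 6 libraries, and 937 others only without that library; none changed direction.

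**Figure D1:**
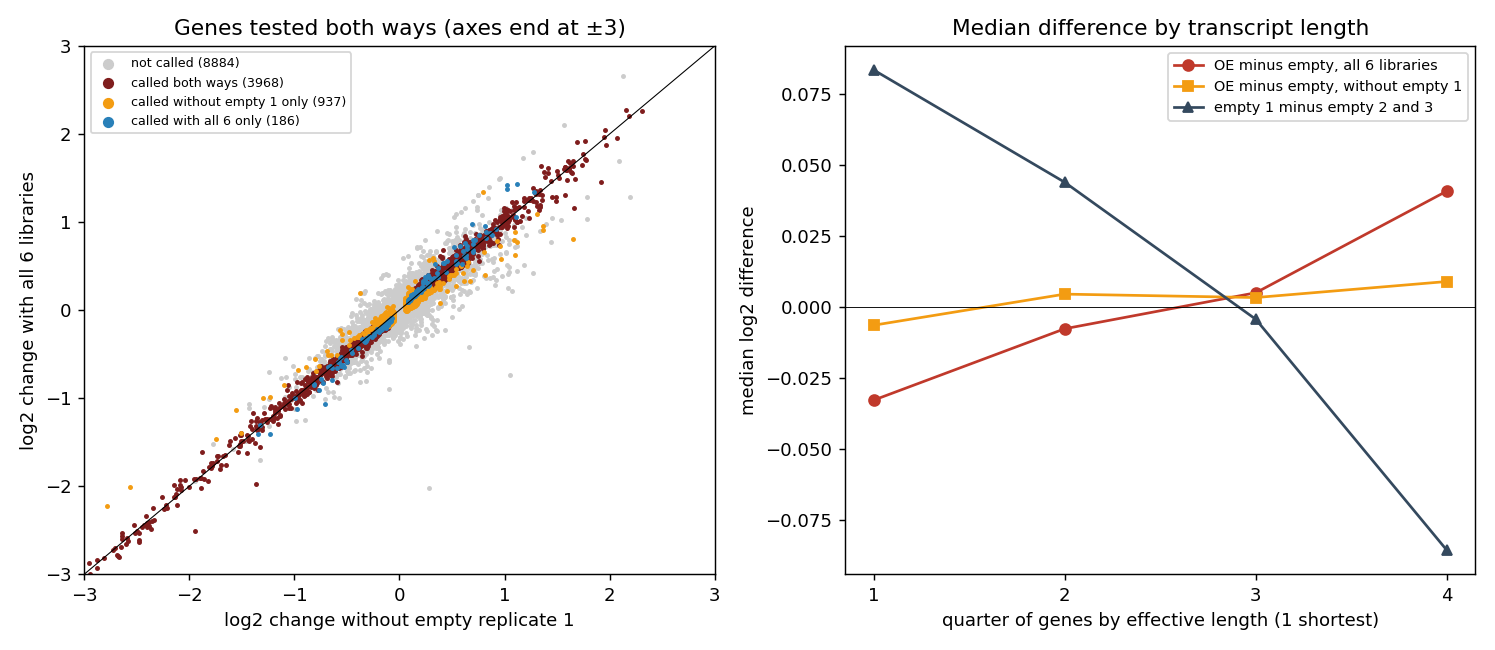
Left, log2 change (OE minus empty) of each gene tested both ways, with all 6 libraries on the vertical axis and without empty replicate 1 on the horizontal axis, coloured by call; the line marks equality. Right, median log2 difference in 4 equal groups of genes from shortest to longest; the medians of empty 1 minus empty 2 and 3 go down with length, from 0.0835 to -0.0858, and those of OE minus empty lie nearer to 0 without empty 1.

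Called genes were spread unevenly over the chromosomes. On chromosome 1, which holds Dstyk, 259 of 811 tested genes were higher and 49 lower in OE libraries (31.9% and 6.04%; median log2 change 0.094), and on chromosome 8 246 of 748 were higher and 39 lower (median 0.074). The opposite balance was found on chromosome 3 (50 higher and 203 lower of 699), chromosome 4 (67 and 243 of 846), chromosome 18 (21 and 133 of 373, median -0.098) and chromosome 19 (32 and 117 of 473). Without the first empty library the medians were 0.0916 on chromosome 1 and 0.0795 on chromosome 8. On these 6 of 20 chromosomes, calls in one direction were at least 3 times as many as in the other; the 14 others hold 10025 tested genes, of which 13.6% were higher and 13.3% lower. Along chromosome 1 the median was above 0 in each of 20 windows of 10 Mb, from 0.041 to 0.131, so the excess was not confined to the surroundings of Dstyk. Within 1 Mb of the Dstyk start, 6 of 22 other tested genes were higher and 3 lower (median 0.092). The p53 inhibitor gene Mdm4 measured 99.9, 100.6 and 100.97 CPM in OE libraries, against 76.9, 85.2 and 83.6 CPM in empty libraries, a 1.23-fold difference close to that of Dstyk. Rab7b, a small GTPase gene of the endolysosomal system, was 1.35-fold higher, and Rab29, another small GTPase gene, was 2.22-fold lower. DNA copy number was not measured here, and its part in these shifts was not tested. Among genes changed by 1.5-fold or more, 21 were higher and 22 lower on chromosome 1, 23 and 9 on chromosome 8, 12 and 30 on chromosome 3, 16 and 16 on chromosome 4, 6 and 15 on chromosome 18, 2 and 10 on chromosome 19, and 8 and 30 on the X chromosome. The split by chromosome was looked at after the values had been seen, as were Mdm4, Rab7b and Rab29.

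**Figure D2:**
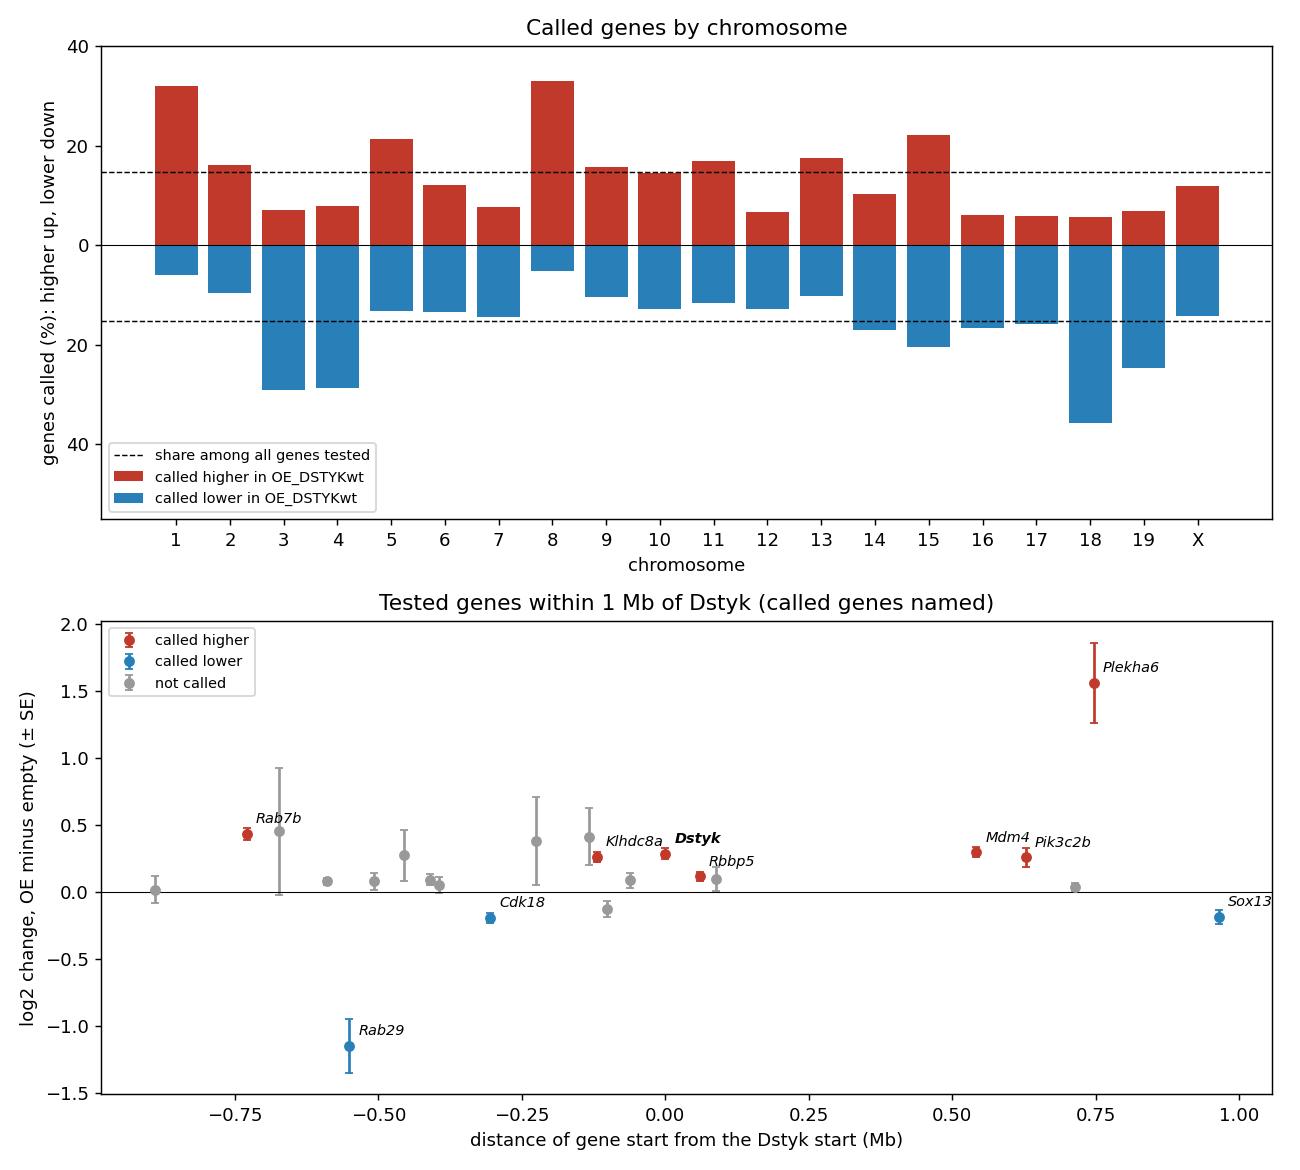
Top, percentage of tested genes called higher (upward) and lower (downward) in OE libraries on each chromosome; dashed lines mark 14.6% and 15.2%, the shares over all genes. Bottom, log2 change ± SE of each tested gene within 1 Mb of the Dstyk start; Dstyk lies among 6 other genes called higher and 3 called lower.

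Each of the 15 largest rises among well-expressed genes was at least 1.90-fold, and 14 of them are described here. Gas1, a surface co-receptor of Hedgehog ligands, measured 27.4, 25.9 and 26.04 CPM in OE libraries, against 10.4, 10.6 and 10.7 CPM in empty libraries. The 3 OE libraries lay within a narrow band above all empty libraries, a 2.51-fold difference (log2 1.33, SE 0.0455; adjusted p = 9.47e-08). The complement protease gene C1s1 measured 28.8, 28.8 and 28.7 CPM in OE libraries, against 15.7, 14.6 and 14.6 CPM in empty libraries and was 1.93-fold higher. The Wnt ligand gene Wnt5a measured 17.4, 17.1 and 16.9 CPM in OE libraries, against 6.87, 7.78 and 6.57 CPM in empty libraries (2.42-fold; adjusted p = 9.75e-07). Leading genes were chosen to have no overlap between OE and empty libraries, so their separation is not a separate result.

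Pdgfra, a receptor of platelet-derived growth factors, measured 35.2, 33.9 and 35.3 CPM in OE libraries, against 14.3, 17.6 and 19.4 CPM in empty libraries. It was 2.03-fold higher (log2 1.02, SE 0.0869; adjusted p = 2.99e-05); its first empty library was the lowest of the 6, and without that library the log2 change was 0.91. Pappa2, a protease that cleaves insulin-like growth factor binding proteins, measured 254, 262 and 259 CPM in OE libraries, against 110.3, 128 and 128 CPM in empty libraries (2.11-fold). Ogn, a small leucine-rich proteoglycan of the matrix, measured 172, 168 and 168 CPM in OE libraries, against 82.6, 84.5 and 82.9 CPM in empty libraries (2.03-fold; adjusted p = 1.12e-08). Pappa2 and Ogn were clearly expressed in both groups. The aminopeptidase N gene Anpep was 2.39-fold higher, the myelin membrane protein gene Pmp22 2.12-fold, the aldehyde dehydrogenase gene Aldh3a1 2.03-fold and the transcription factor gene Klf4 2.003-fold. Sec16b, whose product organises export sites of the endoplasmic reticulum, the collagen prolyl hydroxylase gene P3h2, the calcitonin gene-related peptide gene Calcb and the cationic amino acid transporter gene Slc7a2 were 1.998-fold, 1.91-fold, 1.92-fold and 1.90-fold higher. The highest adjusted p among these rises was 2.99e-05, that of Pdgfra.

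The genes that fell most, Crabp1 and Ly6a, were nearly silent in OE libraries. Crabp1, a retinoic acid binding protein of the cytosol, measured 0.182, 0.0715 and 0.0719 CPM in OE libraries, against 33.7, 31.1 and 27.9 CPM in empty libraries, a 274.5-fold reduction (log2 -8.10, SE 0.171; adjusted p = 4.21e-09; chromosome 9, chr9:54764748-54773110). The size of this fold rests on few counts in the OE libraries: without OE replicate 1, the highest of the 3, the log2 change was -8.69. Ly6a, which encodes the surface antigen Sca-1, measured 0.0454, 0.0953 and 0.120 CPM in OE libraries, against 26.1, 23.3 and 22.9 CPM in empty libraries (271-fold; log2 -8.08, SE 0.149; adjusted p = 2.01e-09; chromosome 15, chr15:74994877-74998031). Each of the 3 empty libraries expressed both genes clearly, and no OE library reached 0.2 CPM. Ly6a belongs to a family of similar sequences, whose reads may be shared among its members.

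Akap12, a scaffold that binds protein kinase A, measured 2.47, 2.72 and 2.20 CPM in OE libraries, against 33.4, 34.8 and 35.5 CPM in empty libraries (14.01-fold lower; log2 -3.81, SE 0.0678; adjusted p = 2.01e-09). Tnc, the matrix glycoprotein tenascin C, measured 2.93, 3.36 and 3.50 CPM in OE libraries, against 29.6, 34.2 and 33.4 CPM in empty libraries (9.95-fold lower). Marcks, a membrane-bound substrate of protein kinase C, measured 3.24, 3.57 and 3.35 CPM in OE libraries, against 29.1, 27.4 and 27.3 CPM in empty libraries (8.23-fold lower; adjusted p = 2.01e-09). For these genes the OE libraries kept a low level that was similar in all 3. Tmem176b and Tmem176a, neighbours on chromosome 6 that encode related membrane proteins, were 6.44-fold and 4.75-fold lower, and Tmem176b measured 6.19, 6.03 and 5.65 CPM in OE libraries, against 40.2, 35.95 and 39.1 CPM in empty libraries. Xlr3a, of an X-linked family with near-identical members, was 9.47-fold lower, a value that rests on how shared reads were divided. The transporter gene Slco5a1 was 3.27-fold lower and the LIM-domain gene Fhl1 2.88-fold lower, with Fhl1 at 56.6, 56.7 and 55.5 CPM in OE libraries, against 163, 158 and 165 CPM in empty libraries. Fhl1 remained well expressed in both groups.

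A further 4 of the 15 largest falls were smaller. Spry1, an inhibitor of receptor tyrosine kinase signalling to ERK, measured 8.26, 8.74 and 8.48 CPM in OE libraries, against 23.2, 23.1 and 25.1 CPM in empty libraries (2.81-fold lower; log2 -1.49, SE 0.0531; adjusted p = 1.24e-07). Pdgfb, a ligand of platelet-derived growth factor receptors, measured 5.15, 4.86 and 4.72 CPM in OE libraries, against 12.8, 11.8 and 13.3 CPM in empty libraries (2.57-fold lower). Thus a receptor gene of this family, Pdgfra, was higher while a ligand gene, Pdgfb, was lower. The cardiac troponin T gene Tnnt2 measured 33.7, 32.4 and 34.4 CPM in OE libraries, against 83.8, 74.5 and 76.0 CPM in empty libraries (2.33-fold lower), and the transcription factor gene Mef2c was 2.55-fold lower. The adjusted p of these falls was at most 1.67e-06.

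**Figure D3:**
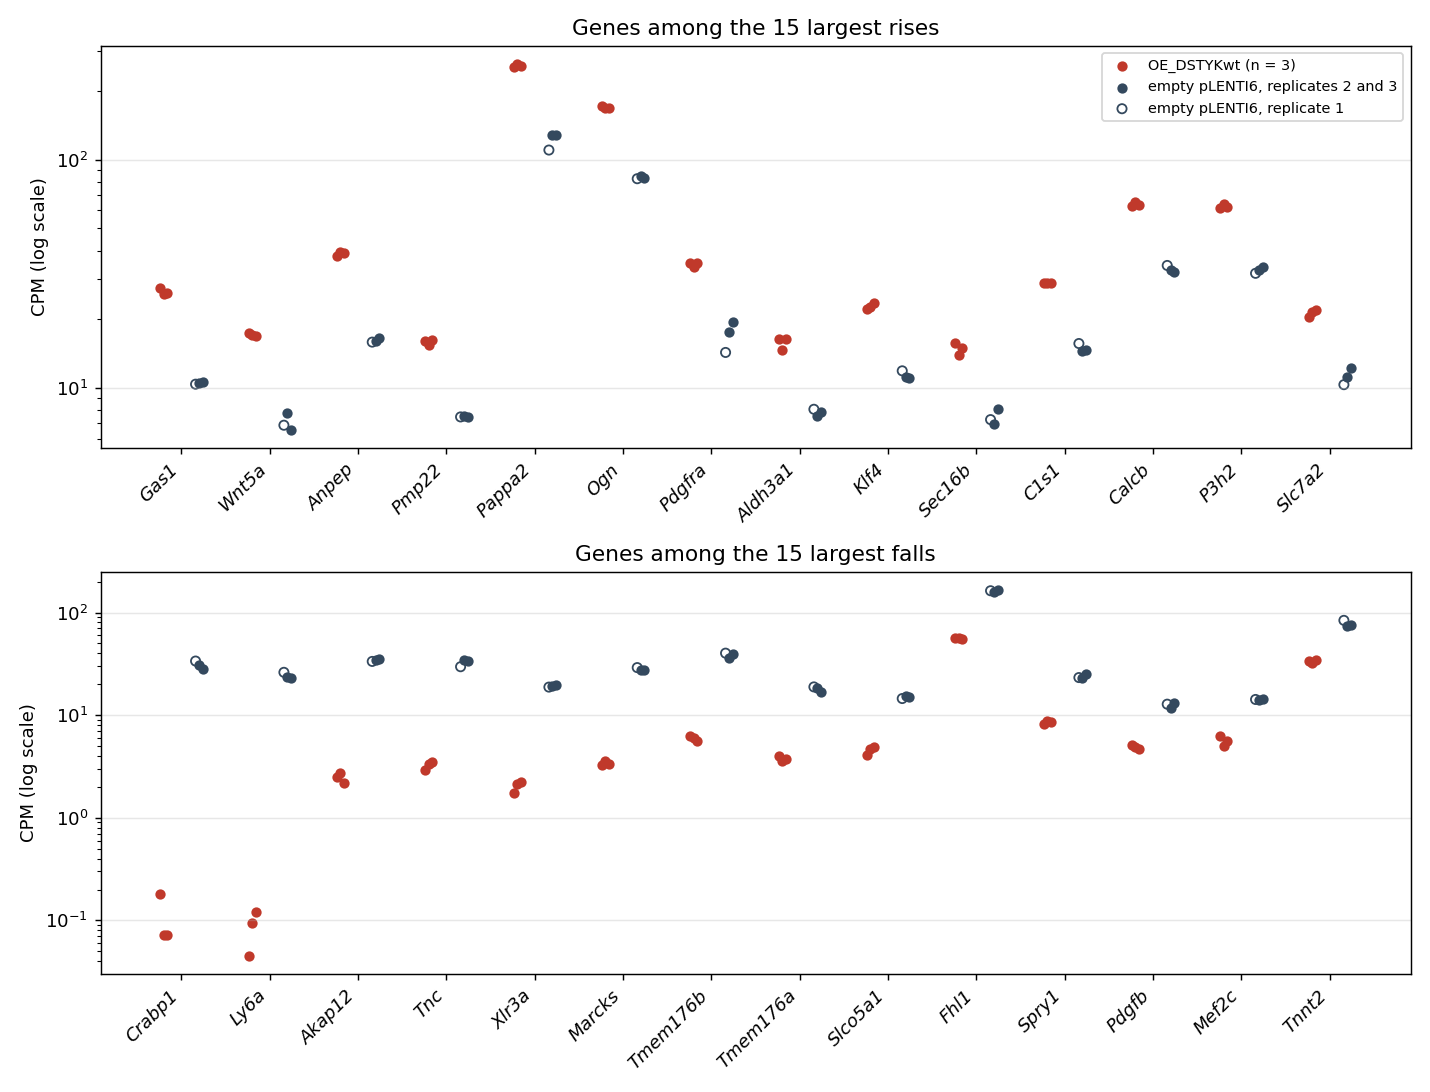
CPM on a log axis of 14 of the 15 genes with the largest rises (top) and 14 of the 15 with the largest falls (bottom); each point is 1 library, OE left and empty right of each tick, and the open circle is empty replicate 1. No OE library overlaps an empty library, which the choice of these genes required. Crabp1 and Ly6a lie below 0.2 CPM in all OE libraries.

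Below the expression level required of the leading genes, 23 protein-coding genes were near silent in OE libraries and expressed in empty libraries, and 2 showed the reverse. Near silent here means at most 3 counts over the 3 libraries of one group with at least 10 counts in each library of the other, a rule chosen after the values had been seen. Ly6c1, a relative of Ly6a on chromosome 15, had 0, 3 and 0 counts in OE libraries, against 138, 165 and 152 in empty libraries. Tmem98, a membrane protein gene, had 0, 1 and 1 counts, against 89, 96 and 100 in empty libraries. Wif1, a secreted inhibitor of Wnt ligands, had 0, 1 and 0 counts, against 55, 43 and 54 (a ratio of 150, with a 95% counting interval from 26.5 to 5960). Armcx4 on the X chromosome had no count in OE libraries and 123 in empty libraries, at least 40.5-fold lower against a floor of 3 counts over the group. Pou2af1, a transcriptional coactivator known from B cells, had 21, 17 and 21 counts in OE libraries, against 2, 0 and 0 in empty libraries. The agreement among the 3 libraries of a group in these genes was set by the rule and is not a separate result. Intervals and floors cover counting error only.

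The unfolded protein response answers misfolded protein in the endoplasmic reticulum. Of 25 listed genes, all tested, 14 fell, 1 rose and 10 were not called, where 15.2% and 14.6% of all genes did, and the median log2 change was -0.099 against 0.0026 over all genes. Sdf2l1, a component of chaperone complexes in this compartment, measured 89.1, 88.3 and 86.8 CPM in OE libraries, against 136, 129 and 125 CPM in empty libraries (1.48-fold lower; log2 -0.56, SE 0.0350; adjusted p = 3.96e-06). Creld2, a secretory-pathway gene induced by this response, measured 105, 102 and 106 CPM in OE libraries, against 137, 131 and 129.8 CPM in empty libraries (1.27-fold lower). The disulfide isomerase gene Pdia4 was 1.21-fold lower and the chaperone gene Hyou1 1.19-fold lower. In each of these genes all OE libraries lay below all empty libraries, and in 46% of all genes the groups did not overlap. Xbp1, whose spliced mRNA encodes a main activator of the response, was the gene that rose, at 177, 184 and 181 CPM in OE libraries, against 174, 168 and 166 CPM in empty libraries (1.07-fold; adjusted p = 0.0378). The main chaperone gene Hspa5 did not pass the test (log2 -0.06, SE 0.0256; adjusted p = 0.109), nor did Hsp90b1 (log2 -0.04; adjusted p = 0.229). Without the first empty library the counts were 15 lower and 1 higher, and on the 14 chromosomes without lopsided calls 11 of 21 were lower and 1 was higher.

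The promoters of this list are shown because 14 of its 25 members fell. The endoplasmic reticulum stress element, a site known to recruit NF-Y and ATF6, was searched on both strands as CCAAT and CCACG with 9 bases of any kind between them, in the 250 bases before the RefSeq start of each gene (GRCm38.p6); overlapping matches were allowed. It was present in 9 of 22 listed genes with a RefSeq promoter (40.9%) and in 5 of 11 that were called lower (45.5%). Among all 27025 promoters 33 held it (0.122%). The share among the falls was thus close to that of the whole list, so the contrast with all promoters describes the list and not the falls. The 4 genes printed were called lower, hold the element once (capitals) and have an annotated transcript that opens at the start used.
Creld2, chr15:88819396-88819645, plus strand: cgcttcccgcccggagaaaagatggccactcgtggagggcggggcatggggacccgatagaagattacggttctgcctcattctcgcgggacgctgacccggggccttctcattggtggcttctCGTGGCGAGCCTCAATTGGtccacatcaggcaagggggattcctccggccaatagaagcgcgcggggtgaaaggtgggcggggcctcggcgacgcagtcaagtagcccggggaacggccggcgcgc
Calr, chr8:84846932-84847181, minus strand: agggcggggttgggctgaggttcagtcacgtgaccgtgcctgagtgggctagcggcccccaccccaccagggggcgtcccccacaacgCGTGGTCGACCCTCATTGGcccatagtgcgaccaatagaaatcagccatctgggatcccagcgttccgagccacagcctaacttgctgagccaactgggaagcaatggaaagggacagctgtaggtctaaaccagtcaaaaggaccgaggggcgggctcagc
Syvn1, chr19:6046326-6046575, plus strand: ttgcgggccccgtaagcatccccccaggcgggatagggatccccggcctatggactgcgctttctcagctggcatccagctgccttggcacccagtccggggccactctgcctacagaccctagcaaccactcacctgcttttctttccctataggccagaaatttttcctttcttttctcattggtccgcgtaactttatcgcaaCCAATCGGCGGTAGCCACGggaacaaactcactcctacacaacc
Canx, chr11:50325674-50325923, minus strand: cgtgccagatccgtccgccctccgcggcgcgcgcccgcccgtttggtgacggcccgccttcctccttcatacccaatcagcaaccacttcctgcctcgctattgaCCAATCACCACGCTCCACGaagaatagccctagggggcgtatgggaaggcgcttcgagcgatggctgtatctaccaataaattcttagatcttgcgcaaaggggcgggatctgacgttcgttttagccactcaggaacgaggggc
Creld2 and Calr hold the element in the reverse orientation, Syvn1 and Canx in the forward one. Calr, a calcium-binding chaperone gene, measured 2380.2, 2348 and 2314 CPM in OE libraries, against 2637, 2532 and 2567 CPM in empty libraries (1.10-fold lower, a call lost under at least 1 alternative), and Canx, its membrane-bound relative, was 1.07-fold lower. Syvn1, the ubiquitin ligase gene of endoplasmic reticulum-associated degradation, measured 106, 107 and 106 CPM in OE libraries, against 116, 113 and 116 CPM in empty libraries (1.08-fold lower). A match describes these letters in this window and does not show that a factor bound there.

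Glycolysis genes and genes induced by low oxygen formed the list with the largest share of falls when all 6 libraries were used (57.1%); without the first empty library 8 of 13 mitochondrially encoded genes fell, a larger share. Of 35 tested members 20 fell and 3 rose (median log2 -0.151), where 15.2% and 14.6% of all genes did. Without the first empty library 21 fell and 3 rose, against 17.6% and 17.1% of all genes. On the 14 other chromosomes 16 of 28 fell and 2 rose, against 13.3% and 13.6% of all genes there. The glucose transporter gene Slc2a1 measured 51.5, 48.9 and 50.5 CPM in OE libraries, against 77.4, 75.3 and 74.8 CPM in empty libraries (1.51-fold lower; log2 -0.59, SE 0.0304; adjusted p = 1.31e-06). Aldoa, a glycolytic aldolase, measured 448, 453 and 442 CPM in OE libraries, against 591, 552 and 560.2 CPM in empty libraries (1.27-fold lower). The hexokinase gene Hk2 was 1.17-fold lower, the enolase gene Eno1 1.31-fold, the lactate dehydrogenase gene Ldha 1.12-fold and Gapdh 1.10-fold. These steps run from glucose entry to lactate, and each separated the groups, as 46% of all genes did. Slc2a1 and Eno1 lie on chromosome 4, where 67 genes were higher and 243 lower. Among hypoxia-induced genes, the collagen prolyl 4-hydroxylase gene P4ha2 measured 3.40, 3.002 and 3.28 CPM in OE libraries, against 7.34, 7.75 and 7.17 CPM in empty libraries (2.30-fold lower), the oxygen-sensing hydroxylase gene Egln3 was 2.35-fold lower and Ndrg1 1.43-fold. The genes that rose were Pfkfb3, whose product makes the activator of phosphofructokinase, at 32.1, 31.5 and 31.6 CPM in OE libraries, against 18.9, 20.1 and 19.6 CPM in empty libraries (1.62-fold), Pfkp, a phosphofructokinase isoform (1.19-fold), and Ankrd37 (1.66-fold).

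A hypoxia response element core, ACGTG or GCGTG on either strand, with overlaps allowed, was searched in the 250 upstream bases. It lay in 25 of 33 listed genes (75.8%) and in 13 of 18 called lower (72.2%), against 38.6% of all promoters. The share was thus not higher among the falls than in the whole list. P4ha2, the member with a fall of over 2-fold at several CPM, is shown beside P4ha1, a smaller fall (1.18-fold) of the same enzyme family; capitals mark the core in either orientation.
P4ha2, chr11:54100674-54100923, plus strand: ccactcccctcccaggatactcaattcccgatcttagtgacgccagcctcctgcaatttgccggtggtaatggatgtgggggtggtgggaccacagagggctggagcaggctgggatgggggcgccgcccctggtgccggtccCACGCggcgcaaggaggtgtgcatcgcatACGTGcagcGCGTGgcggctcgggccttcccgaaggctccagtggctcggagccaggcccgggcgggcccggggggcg
P4ha1, chr10:59323046-59323295, plus strand: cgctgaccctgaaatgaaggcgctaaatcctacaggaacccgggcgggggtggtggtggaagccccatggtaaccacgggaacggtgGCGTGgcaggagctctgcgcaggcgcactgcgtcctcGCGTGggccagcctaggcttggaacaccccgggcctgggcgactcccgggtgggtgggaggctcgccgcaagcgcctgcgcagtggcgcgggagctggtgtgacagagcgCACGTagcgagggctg
Each promoter held 3 cores, while the gene changes were -1.20 and -0.24 on the log2 scale.

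Of 26 tested cholesterol synthesis genes 13 fell and none rose (median log2 -0.091). Without the first empty library 14 fell and 2 rose. Of all genes 15.2% fell and 14.6% rose, and without that library 17.6% and 17.1%. Fdps, which makes farnesyl diphosphate, measured 273.6, 275.5 and 278 CPM in OE libraries, against 346, 328 and 321 CPM in empty libraries (1.20-fold lower; log2 -0.27, SE 0.0318; adjusted p = 2.44e-04). Srebf2, the transcription factor that controls the pathway, measured 253, 251 and 255 CPM in OE libraries, against 287, 277 and 291 CPM in empty libraries (1.13-fold lower), and the sterol demethylase gene Cyp51 and the thiolase gene Acat2 were 1.11-fold and 1.13-fold lower. These enzymes and their regulator thus fell by less than 1.5-fold. A sterol regulatory element, TCACNCCAC with N any base, was searched in the same promoter windows. It lay in 1 of 19 listed genes with a promoter and in 1 of 8 called lower, against 1.04% of all promoters. Of 15 fatty acid synthesis genes 6 fell, among them the desaturase genes Fads1 (1.14-fold) and Fads2 (1.14-fold), and 2 rose, among them the desaturase gene Scd1 (1.13-fold).

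**Figure D4:**
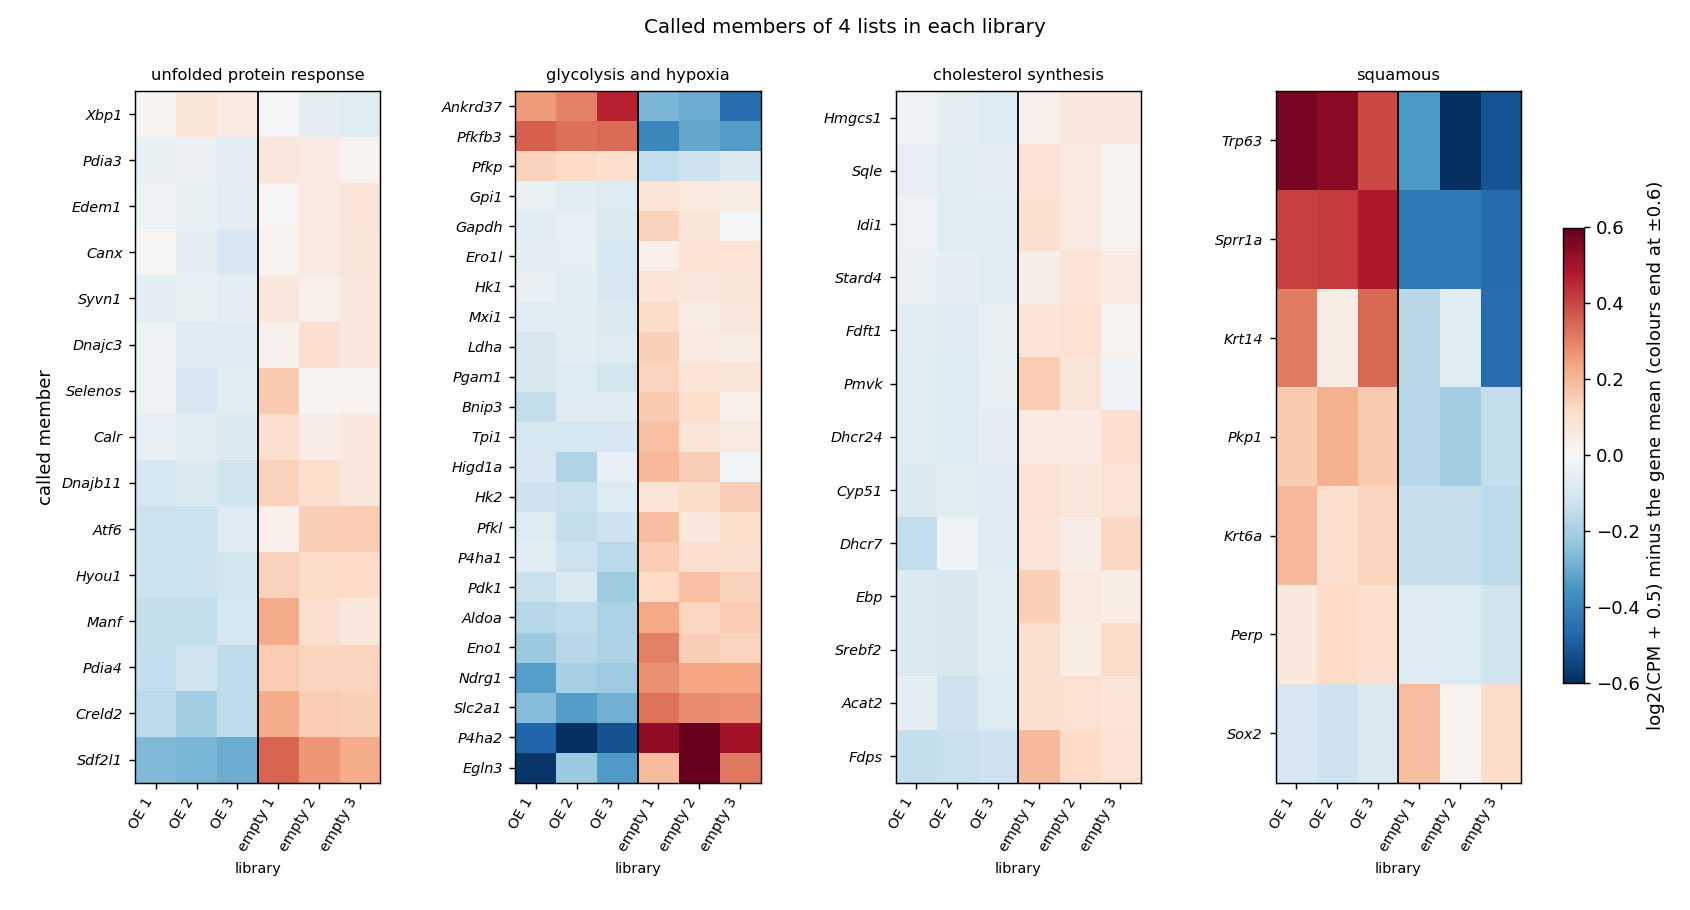
Called members of 4 lists in each library as log2(CPM + 0.5) minus the gene's mean over the 6 libraries (red above, blue below; colours end at ±0.6), OE columns left of the line and empty columns right. The 14 lower members of the unfolded protein response and the 20 lower members of the glycolysis and hypoxia list are blue or near white in all 3 OE libraries.

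Genes of amino acid stress and redox control moved in both directions. In the list of ATF4 targets, which respond to amino acid shortage, 11 of 30 rose and 5 fell (median log2 0.024). Aldh1l2, a mitochondrial folate enzyme, measured 103, 100.1 and 100.01 CPM in OE libraries, against 63.6, 69.8 and 71.5 CPM in empty libraries (1.48-fold higher; log2 0.56, SE 0.0415; adjusted p = 1.19e-05), and the secreted hormone gene Stc2 was 1.49-fold higher. Cth, the cystathionine gamma-lyase gene, measured 2.72, 2.64 and 2.75 CPM in OE libraries, against 5.40, 5.54 and 5.74 CPM in empty libraries (2.05-fold lower). Atf4 and Ddit3 were not called, and the list thus held strong changes either way. Of 29 NRF2 target genes 5 rose and 9 fell (9 and 9 without the first empty library). Nqo1, a quinone reductase, measured 2.09, 1.86 and 1.75 CPM in OE libraries, against 3.92, 3.85 and 4.14 CPM in empty libraries (2.09-fold lower), and Gclm and Gclc, the subunits of the enzyme that starts glutathione synthesis, were 1.23-fold and 1.23-fold lower, whereas Aldh3a1 and the cystine transporter gene Slc7a11 (1.29-fold) were higher. Of 22 tested heat shock genes 3 rose and 8 fell. The small heat shock gene Cryab measured 5.17, 4.67 and 4.93 CPM in OE libraries, against 1.60, 1.44 and 1.45 CPM in empty libraries (3.30-fold higher), and Hspb1, of the same family, 2.16, 2.24 and 2.01 CPM in OE libraries, against 4.50, 3.90 and 3.88 CPM in empty libraries (1.91-fold lower). Of 23 aminoacyl-tRNA synthetase genes 4 rose and 5 fell (17.4% and 21.7%), not far from the 14.6% and 15.2% of all genes.

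Receptor tyrosine kinases and their ligands were more often higher. Of 39 tested members 16 rose and 7 fell (median log2 0.106), and on the 14 other chromosomes 10 of 24 rose and 3 fell. Beside Pdgfra, the growth factor receptor genes Egfr (1.24-fold), Fgfr1 (1.22-fold) and Pdgfrb (1.16-fold) were higher, with Fgfr1 at 299.6, 299 and 294 CPM in OE libraries, against 243, 239.6 and 247 CPM in empty libraries. Fgfr2 measured 4.56, 5.43 and 5.22 CPM in OE libraries, against 7.94, 7.84 and 8.02 CPM in empty libraries (1.57-fold lower), and Efnb2, a membrane-bound ligand of Eph receptors, 67.8, 65.4 and 65.0 CPM in OE libraries, against 94.4, 93.1 and 98.5 CPM in empty libraries (1.44-fold lower; log2 -0.53, SE 0.0320; adjusted p = 3.17e-06). The members therefore split by receptor rather than moving as a block. Among 26 targets of the ERK pathway 5 rose and 10 fell, where 14.6% and 15.2% of all genes did. Beside Spry1, the transcription factor gene Etv4 was 1.48-fold lower and the ligand gene Hbegf 1.23-fold lower, while the immediate-early gene Egr1, on chromosome 18, measured 202, 210.2 and 200.9 CPM in OE libraries, against 160.4, 159 and 162 CPM in empty libraries (1.27-fold higher). On the 14 other chromosomes 4 of 17 ERK targets rose and 4 fell. In the immediate-early list 7 of 27 rose, led by Klf4 and Egr3 (1.44-fold), and 7 fell (9 and 6 without the first empty library).

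Of 19 tested YAP targets and regulators 9 fell and 3 rose (median log2 -0.103), where 15.2% and 14.6% of all genes did. Ankrd1, a nuclear YAP target, measured 81.4, 82.7 and 82.6 CPM in OE libraries, against 124, 121 and 121 CPM in empty libraries (1.48-fold lower; log2 -0.57, SE 0.0258; adjusted p = 5.79e-07), and the tissue factor gene F3 was 1.33-fold lower. Yap1 itself measured 389.6, 382 and 382 CPM in OE libraries, against 307, 297 and 304 CPM in empty libraries (1.27-fold higher), and the matricellular targets Ccn1 and Ccn2 did not pass the test (log2 0.00 and -0.00; adjusted p = 0.971 and 0.963). Of 33 tested TGF-beta and BMP genes 13 fell and 5 rose, and on the 14 other chromosomes 6 of 22 fell and 5 rose. The extracellular target Tgfbi measured 23.8, 22.6 and 23.1 CPM in OE libraries, against 14.2, 13.3 and 12.5 CPM in empty libraries (1.74-fold higher), while the target gene Pmepa1 was 1.31-fold lower and the activin subunit gene Inhba 1.37-fold lower. In the Wnt and Notch list 11 of 40 rose and 7 fell, and without the first empty library 9 rose and 10 fell. The Notch ligand gene Jag1 was 1.48-fold lower and the target genes Hes1 and Nrarp 1.76-fold and 2.07-fold lower; the receptor gene Fzd6 was 1.25-fold higher. Wnt5a and Fzd6 were thus higher while these Notch genes were lower.

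Keratinocyte genes and matrix genes also changed. Of the 9 testable squamous markers 6 rose and 1 fell (median log2 0.293), and 4 of 5 rose on the 14 other chromosomes. All 25 listed squamous markers together summed to 407 to 411 CPM in OE libraries and 350.3 to 362 CPM in empty libraries. Trp63, whose values stand above, was 2.19-fold higher (log2 1.13, SE 0.103; adjusted p = 4.57e-05), and Sox2 was 1.16-fold lower. The plakophilin gene Pkp1 of desmosomes measured 133, 138 and 133 CPM in OE libraries, against 106, 103 and 108 CPM in empty libraries (1.28-fold higher), the cornified envelope gene Sprr1a was 2.10-fold higher and the keratin gene Krt6a 1.23-fold higher. Perp, a p63 target of desmosomes, was 1.14-fold higher, so Trp63, Pkp1, Sprr1a, Krt6a and Perp moved opposite to Sox2. Among 14 testable epithelial markers 5 fell and 1 rose: the keratin gene Krt18 measured 252, 249 and 236 CPM in OE libraries, against 360.3, 338 and 335 CPM in empty libraries (1.40-fold lower) and the desmosome gene Pkp3 was 2.09-fold lower, whereas the tight junction gene Cldn1 measured 9.53, 9.93 and 9.58 CPM in OE libraries, against 3.80, 4.10 and 4.27 CPM in empty libraries (2.38-fold higher; log2 1.25, SE 0.0655; adjusted p = 1.39e-06). Of 22 tested mesenchymal markers 7 rose and 5 fell, of 8 alveolar and club cell markers 2 rose and 1 fell, and of 9 fibroblast markers 3 rose and 1 fell. Of 5 endothelial markers 1 rose (Flt1, not called without the first empty library), and none of 6 leukocyte markers was called. For comparison, 14.6% of all genes rose and 15.2% fell.

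Among 37 tested matrix genes 11 rose and 12 fell, where 14.6% and 15.2% of all genes did. Beside Tnc, the collagen gene Col8a1 measured 97.8, 94.5 and 95.7 CPM in OE libraries, against 156, 160.4 and 161 CPM in empty libraries (1.66-fold lower; log2 -0.73, SE 0.0276; adjusted p = 1.76e-07), while Col1a1 measured 11.2, 11.4 and 13.1 CPM in OE libraries, against 7.37, 7.04 and 7.70 CPM in empty libraries (1.61-fold higher) and Col6a1 was 1.38-fold higher. The metalloproteinase inhibitor genes Timp2 and Timp3 were 1.34-fold and 1.40-fold higher, and Mmp14, a membrane-bound metalloproteinase, measured 141, 139 and 142 CPM in OE libraries, against 197, 194 and 191 CPM in empty libraries (1.38-fold lower). In the protease list 8 of 29 rose and 7 fell, so inhibitors and a protease moved in opposite directions within a balanced list. The integrin gene Itgb1, the common beta chain of many integrins, measured 222, 226 and 222 CPM in OE libraries, against 316, 323 and 323 CPM in empty libraries (1.44-fold lower; log2 -0.52, SE 0.0248; adjusted p = 7.76e-07) and the laminin chain gene Lama5 19.1, 22.1 and 22.9 CPM in OE libraries, against 35.7, 38.6 and 41.2 CPM in empty libraries (1.80-fold lower). Itgb4, the partner of the laminin receptor chain Itga6, measured 10.1, 9.34 and 9.05 CPM in OE libraries, against 3.92, 4.70 and 4.99 CPM in empty libraries (2.09-fold higher). Of 30 laminin and integrin genes 6 rose and 9 fell in all.

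Interferon-stimulated genes were more often higher, with single strong exceptions. Of 51 tested members 18 rose and 6 fell (median log2 0.095), and on the 14 other chromosomes 14 of 38 rose and 3 fell. The transcription factor gene Irf7 measured 6.90, 7.36 and 8.14 CPM in OE libraries, against 5.75, 5.34 and 5.70 CPM in empty libraries (1.33-fold higher; log2 0.42, SE 0.0771; adjusted p = 0.00315), and Dhx58, a cytosolic RNA sensor of the RIG-I family, measured 12.1, 12.6 and 13.01 CPM in OE libraries, against 8.22, 8.13 and 8.11 CPM in empty libraries (1.54-fold higher). Rsad2, the antiviral gene viperin, went the other way with 0.0454, 0.0476 and 0.120 CPM in OE libraries, against 1.52, 1.93 and 1.68 CPM in empty libraries (23.4-fold lower; log2 -4.55, SE 0.312; adjusted p = 7.46e-06), and the transcript of Isg15 did not pass the test (log2 0.03, SE 0.0493; adjusted p = 0.660). Of 35 tested targets of TNF and NF-kB 6 rose and 13 fell. The apoptosis inhibitor genes Birc2 and Birc3, neighbours on chromosome 9, were 1.36-fold and 1.42-fold higher and the cytokine gene Lif measured 113, 114 and 108 CPM in OE libraries, against 82.1, 82.2 and 86.03 CPM in empty libraries (1.34-fold higher), whereas the NF-kB subunit genes Nfkb2 and Relb were 1.15-fold and 1.18-fold lower and the chemokine gene Ccl2 1.91-fold lower. Among 37 cell death genes 5 rose and 9 fell (9 and 12 without the first empty library). Ripk3, the kinase of necroptosis and a relative of DSTYK, measured 1.29, 1.45 and 1.29 CPM in OE libraries, against 3.97, 3.74 and 4.04 CPM in empty libraries (2.91-fold lower; log2 -1.54, SE 0.112; adjusted p = 1.13e-05). In the list of class I antigen presentation, 23 genes were tested, of which 2 were higher and 5 lower (8.7% and 21.7%). Of 24 ligands of T and NK cells 5 rose and 4 fell (4 and 5 without the first empty library), shares near those of all genes, 14.6% and 15.2%; they include Lgals9 (1.34-fold higher) and Pvr (1.28-fold lower).

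Genes of the mTOR pathway were more often called higher than lower. Of 43 tested lysosome genes 10 rose and 5 fell, and of 16 subunits of the proton pump V-ATPase 6 rose and 2 fell. The shares of all genes were 14.6% higher and 15.2% lower. The ceramidase gene Asah1 measured 376, 375 and 372 CPM in OE libraries, against 324, 319.8 and 313 CPM in empty libraries (1.17-fold higher), and the pump subunit gene Atp6v0a1 was 1.22-fold higher. Gpnmb, a glycoprotein of lysosome-related organelles, measured 55.7, 57.6 and 56.9 CPM in OE libraries, against 106, 105 and 105 CPM in empty libraries (1.86-fold lower, log2 -0.89, SE 0.0263, adjusted p = 3.95e-08). It was the strongest call of the lysosome list and opposite to most of its called members. Asah1 and Lamp1 lie on chromosome 8; on the 14 other chromosomes 5 of 31 lysosome genes rose and 4 fell (16.1% and 12.9%), close to the 13.6% and 13.3% of all genes there. Of 41 genes of the mTOR pathway 11 rose and 3 fell, led by Sesn3, a stress-induced inhibitor of mTORC1, at 114, 114 and 112 CPM in OE libraries, against 67.9, 74.7 and 74.5 CPM in empty libraries (1.57-fold higher; log2 0.65, SE 0.0378; adjusted p = 2.53e-06). On the 14 other chromosomes 10 of 29 rose and 1 fell. Of 43 autophagy genes 7 rose and 6 fell (11 and 9 without the first empty library), near the shares of all genes, with the WIPI-family genes Wdr45 1.25-fold and Wipi2 1.16-fold lower (the Wipi2 call was lost under at least 1 alternative).

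The counts of several lists depended on the first empty library. Nuclear genes of oxidative phosphorylation lay 0.13 higher in that library than in the other empty libraries (median, log2), cytosolic ribosomal protein genes 0.171, mitochondrial ribosomal protein genes 0.119 and proteasome genes 0.111 higher, while mitochondrially encoded genes lay 0.169 lower. With all 6 libraries, 5 of 74 oxidative phosphorylation genes rose and 11 fell, and without that library 12 rose and 13 fell. Cytosolic ribosomal protein genes gave 2 higher and 15 lower of 78 with all libraries, and 11 and 22 without it. Mitochondrial ribosomal protein genes gave 1 and 13 of 60, and 6 and 11 without it; proteasome genes gave 1 and 11 of 36, and 4 and 13. Mitochondrially encoded genes gave 0 higher and 2 lower of 13 with all libraries, and 0 and 8 without it. The falls of these lists were thus not equally large in both fits. Single members were called in both: Rps6, a protein of the small ribosomal subunit, measured 498, 499.7 and 489.6 CPM in OE libraries, against 736, 669 and 622 CPM in empty libraries (1.36-fold lower; log2 -0.45, and -0.38 without the first empty library), and the proteasome ATPase gene Psmc6 was 1.21-fold lower. Of 51 ribosome biogenesis genes 2 rose and 11 fell (7 and 13 without that library). With all 6 libraries 14.6% of all genes rose and 15.2% fell, and without that library 17.1% and 17.6%.

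Cell cycle genes showed no common shift. Of 50 S phase genes 5 rose and 8 fell (median log2 -0.021), and of 54 genes of G2 and M phase 7 rose and 9 fell (median -0.0024). The called changes were small, such as those of the helicase gene Mcm7 (1.16-fold lower) and the cyclin gene Ccna2 (1.12-fold lower). In all, 13 of 50 and 16 of 54 members were called, against 29.7% of all genes. Of 29 tested p53 targets 5 rose and 7 fell; Cdkn1a, the cell cycle inhibitor p21, measured 1.52, 1.67 and 1.60 CPM in OE libraries, against 2.60, 2.72 and 2.46 CPM in empty libraries (1.62-fold lower; log2 -0.70, SE 0.119; adjusted p = 0.00197).

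**Figure D5:**
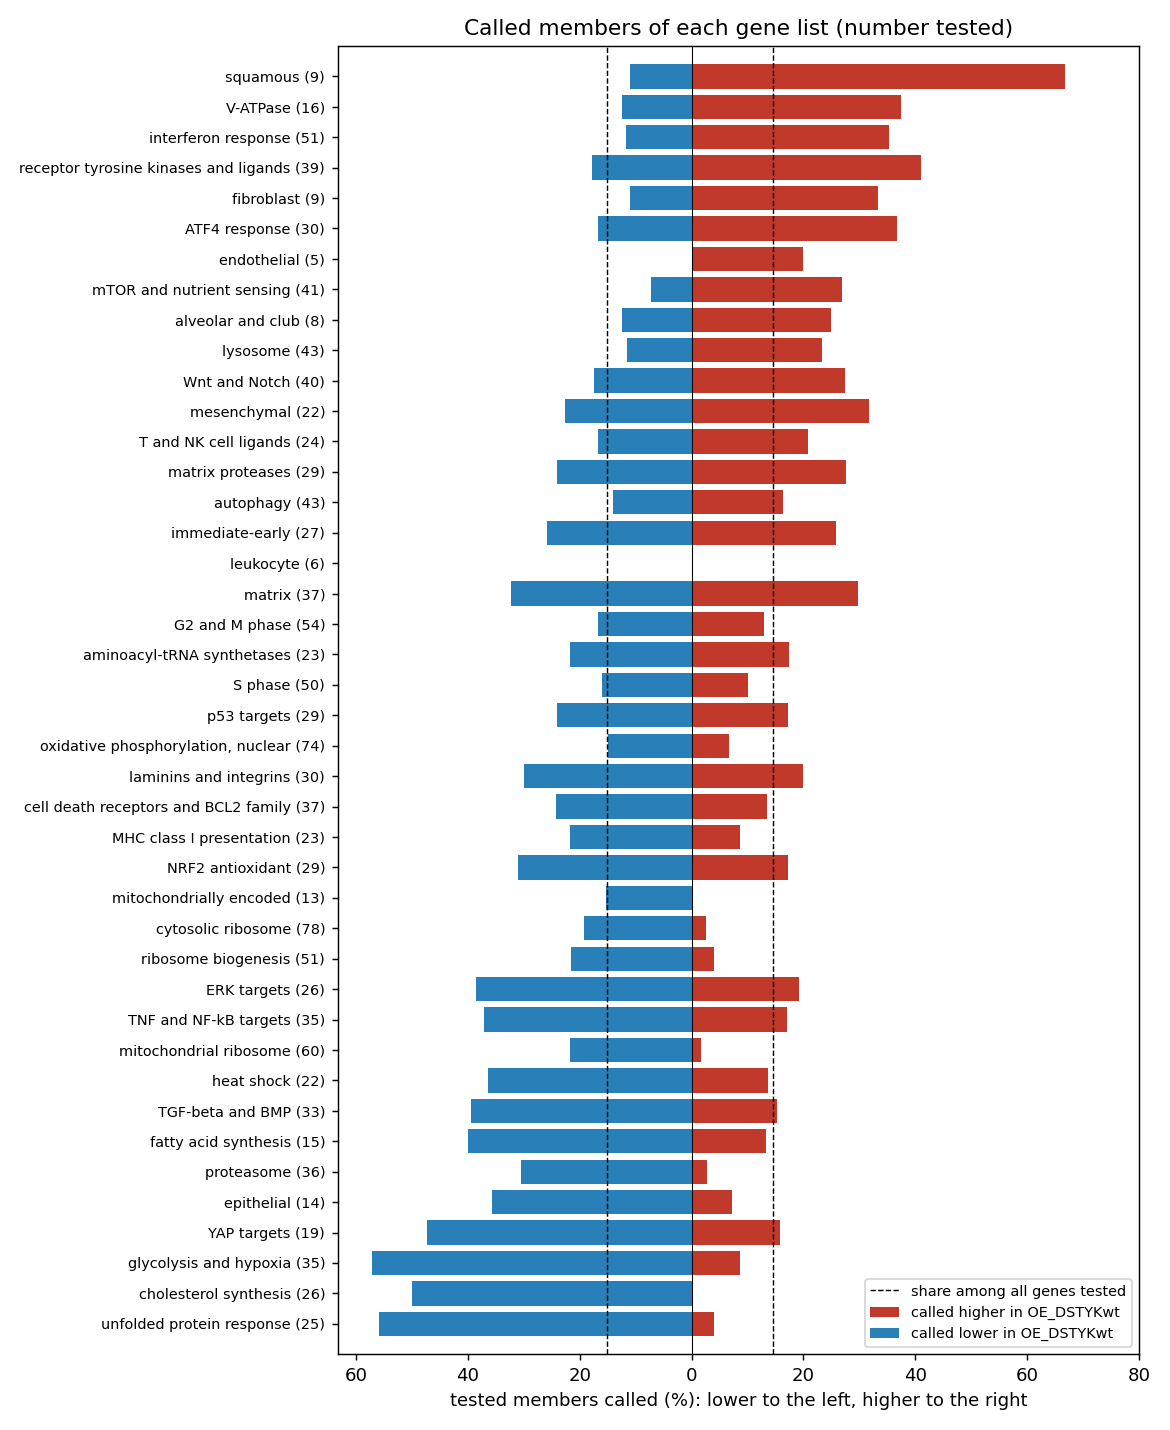
Percentage of tested members of each of 42 gene lists called higher (right) and lower (left) in OE libraries, ordered by the difference, with the number tested in brackets; dashed lines mark the shares among all genes, 14.6% higher and 15.2% lower. The unfolded protein response, cholesterol synthesis and glycolysis lists lie at the lower end and the squamous list, with 9 tested genes, at the upper end.

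The effect of the construct was set against that of the hairpin sh3 in the same line, as the difference between OE minus empty pLENTI6 and sh3 minus empty TPLKO over 12 libraries. The 2 experiments share no library, but vector and doxycycline differ between them and cannot be told apart from the direction in which DSTYK was altered. This difference was called for 7777 of 14975 genes (51.9%). For Dstyk the changes were 0.29 with the construct and -0.50 with the hairpin, a difference of 0.78 (adjusted p = 3.54e-08). Among Dstyk and the 30 leading genes the difference was called for 27, and for 7 of them the experiments gave called changes in opposite directions: Dstyk, Crabp1, Ly6a, Xlr3a, Marcks, Tmem176a and Tmem176b. Crabp1 changed by -8.10 with the construct and by 2.34 with the hairpin, and Ly6a by -8.08 and 2.82. For Klf4, Spry1, Pdgfb and Tnnt2 the difference was not called: Spry1 changed by -1.49 and -1.42 (adjusted p of the difference 0.507) and Klf4 by 1.002 and 0.99 (0.949). These 4 genes moved the same way in both experiments, although DSTYK was altered in opposite directions. Most of the other leading genes, whose difference was called, also moved the same way in both, but by different amounts. Gas1 changed by 1.33 with the construct and 2.22 with the hairpin, and Tnc by -3.32 and -1.66. The opposite changes were those of the 7 genes named above.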

How the data were processed

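Per the labels' protocols, libraries came from a stranded Illumina mRNA kit with 75-base reads; the submitters' processing notes name kallisto, sleuth and mm10. The authors deposited estimated counts and effective lengths per transcript. Of 118489 transcripts 116816 matched GENCODE M21 (GRCm38, the assembly called mm10); the 1673 others held 0.531% to 0.538% of the counts and were left out. These estimated counts were added up by gene, then rounded to whole numbers. Shared reads make similar genes (Ly6, Xlr3) uncertain.

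R 4.3.3 with edgeR 4.0.16 was used: default filter (minimum count 10, total 15), TMM, quasi-likelihood test, Benjamini-Hochberg adjusted p under 0.05, tested on simulated data; SEs came from the F statistic. limma 3.58.1 and DESeq2 1.42.0 served as alternatives. Members and 42 gene lists were chosen with earlier results of these data known, so list counts are descriptions without a test. Named genes are Dstyk; the 15 largest rises and falls called with and without the first empty library (mean log2 CPM of at least 3, curated symbol, no overlap); each list's 3 called members of smallest adjusted p and its first 3 members; others in the list paragraphs were chosen after their values were seen. Results of some genes that this rule names are not reported here. Promoters are RefSeq's.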

Additional observations from a re-analysis of the deposited data

Results flagged for a closer look

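The 26 results below were singled out because the effect of the construct differed from that of the hairpin in the same line, by edgeR's quasi-likelihood test of the difference over 12 libraries (Benjamini-Hochberg adjusted p under 0.05). Vector and doxycycline differ between the experiments, and their part was not tested. The difference was called for 7777 of 14975 genes, so a call alone does not set a gene apart.

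Values are log2 changes with the construct minus those with the hairpin. Dstyk stood at 0.78. Genes that rose with the construct and rose more with the hairpin gave negative differences, which were -2.57 for Aldh3a1, -2.52 for C1s1, -2.18 for Calcb and -2.02 for Pdgfra. Smaller ones were -0.99 for Wnt5a, -0.90 for Gas1, -0.87 for Pmp22 and -0.69 for P3h2. Positive differences among the rises were 1.11 for Pappa2, 0.86 for Sec16b, 0.40 for Ogn, 0.36 for Slc7a2 and 0.36 for Anpep.

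Among the falls, the difference was -10.90 for Ly6a, -10.4 for Crabp1, -7.63 for Xlr3a, -4.43 for Marcks, -4.42 for Tmem176a and -4.10 for Tmem176b, all higher with the hairpin. It was -3.61 for Akap12, -1.66 for Tnc, -0.93 for Fhl1 and -0.69 for Mef2c. Slco5a1 fell more with the hairpin (-2.56) than with the construct (-1.71), a difference of 0.85.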

How the results depend on the processing

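The number of called genes, 4154, lay between 3020 and 5093 under 9 other settings of scaling, filter, test, length and block, and between 2887 and 4936 when single libraries were left out (2984, 2887 and 2996 without an OE library). With limma on log2(TPM + 1), 1242 genes were lower and 297 changed at least 1.5-fold, against 2118 and 677; the cause was not tested. Without the 6 lopsided chromosomes 2695 of 10025 genes were called. Of these 10025 genes 13.6% were higher and 13.3% lower, against 14.6% and 15.2% of all genes. Without the first empty library DESeq2 called 3273 genes and edgeR 4936. Both of these checks were chosen after seeing the data. Dstyk was called in all settings, with log2 changes from 0.25 to 0.34 and adjusted p from 1.9e-05 to 0.00696. Its range over left-out libraries was 0.25 to 0.32. Counts over left-out libraries ran from 1427 to 2432 for higher genes, 1460 to 2504 for lower genes, 609 to 690 for changes of at least 1.5-fold, 369 to 622 for listed genes and 7278 to 7892 for the difference from the hairpin. Deviations from the group mean correlated at -0.129, -0.134 and -0.0388 between OE and empty libraries of equal replicate number. Between those of unequal number they correlated at -0.0531 to 0.165. With 3 libraries per group these values cannot show whether libraries were paired. With the replicate number as a block 3771 genes were called. Calls were followed for 138 genes: the 30 leading genes and each list's 3 called members of smallest adjusted p. Of these, 128, and all 30 leading genes, kept their call and direction under every alternative. Among the 138, calls were lost under at least 1 alternative for Flt1, Hopx, mt-Nd1, mt-Nd6, Cyc1, Gins2, Rrp1b, Wipi2, Etv5 and Calr, and no direction changed. Calls of other named genes, apart from Dstyk, were not followed in this way.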
